A study of Rattus norvegicus with 4 samples.

Results

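The regions described here are the groups with the most JUN peaks in injured rat nerve: stretches of the genome in which 10 or more JUN peaks follow one another with no gap above 12500 bp. They were chosen by the peaks' positions alone. A gap is the number of bases from the end of 1 peak to the start of the next. On chromosomes 1 to 20, 16907 peaks were listed. Of these, 1475 peaks (8.72%, 95% Wilson interval 8.31 to 9.16, counting error only) lay in 105 such large groups. The interval treats peaks as independent, while they enter large groups 10 or more at a time, so it is too narrow. A further 9847 peaks (58.2%) lay in 3222 groups of 2 to 9 peaks, which serve as the comparison, and 5585 peaks stood alone. The whole list held 17017 peaks, of which 107 on X and 3 on unplaced contigs were outside the rule.

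JUN is a subunit of AP-1, a transcription factor made of pairs of JUN and FOS family proteins that binds short DNA elements in promoters and, more often, in distal enhancers. Schwann cells, the glia of peripheral nerve, switch JUN on after injury, and JUN is known to drive their conversion from myelinating or non-myelinating cells into repair cells. Enhancers that regulate the same gene often lie close together, and stretches with many bound sites have been described for several lineage-determining factors.

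JUN chromatin immunoprecipitation followed by sequencing (ChIP-seq), which recovers the DNA that a protein sits on, was applied to the sciatic nerve of male Sprague Dawley rats 8 days after the nerve was cut. The tissue was the stump distal to the cut. The labels list 2 JUN ChIP libraries and 2 input libraries, which hold chromatin DNA taken without the antibody step. All 4 come from injured nerve, with no uninjured nerve among them, and the age is labelled P28 while the surgery text speaks of adult animals. The stump also holds macrophages, fibroblasts and endothelial cells, so the peaks cannot be assigned to a cell type.

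The authors' list gives 1 chromosome, start and end per peak on the rat build rn5, with no height and no value per library. Each peak is an interval of exactly 300 bp. Depth was unknown and no error between replicates could be computed, so the spreads below are spreads between groups of peaks and not errors between animals. Group membership was decided by peak positions, so spacing, length and density are described without a test. Which genes lie in these groups and which sequences they carry was not analysed here.

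The 105 large groups spanned 3.87 Mb together, or 0.142% of the 2729 Mb from the first base to the last peak of each autosome. They held 381 peaks per Mb, against 6.20 peaks per Mb over the autosomes as a whole. Length stops at the first and last peak and no gap exceeds 12500 bp, so such an excess is fixed by the rule. It was not particular to large groups, as groups of 2 to 9 held 9847 peaks in 22.8 Mb. Most large groups were near the lower limit of size: 73 groups had 10 to 14 peaks, 17 had 15 to 19 and 15 had 20 or more. The last class contained 347 peaks. The median group had 13 peaks (quartiles 11 and 16, highest 34). At the limit of the rule, 23 groups had exactly 10 peaks, with a median length of 27.0 kb and a median density of 3.70 peaks per 10 kb. Just outside it, 26 groups had exactly 9 peaks, with a median length of 23.9 kb and a median density of 3.76 peaks per 10 kb. The groups on either side of the limit were thus much alike in these measures, and their ranges overlapped, from 15.1 to 37.2 kb and from 7.36 to 43.2 kb.

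Large groups were longer than smaller ones, with a density like that of groups of 5 to 9 peaks. Their median length was 34.2 kb (quartiles 27.2 and 42.9, range 15.1 to 142), against 4.83 kb (quartiles 1.61 and 10.5) for groups of 2 to 9 peaks. Of those 3222 smaller groups, 1702 were pairs. Each added peak lengthens a group, so much of this difference follows from the choice by peak number. The median density of large groups was 3.77 peaks per 10 kb (quartiles 3.28 and 4.71, range 2.28 to 7.94). A density over the length from the first to the last peak is high by construction when there are 2 or 3 peaks. Groups of 5 to 9 peaks are therefore the closer comparison, although their density is still raised more than that of large groups. Those 488 groups had a median length of 15.8 kb (quartiles 10.2 and 22.0). Their median density was 3.84 peaks per 10 kb, with a wider range of 1.38 to 17.0. The mean gap of a group is free of this effect. It had a median of 2.51 kb in large groups (quartiles 1.97 and 2.99) and 2.76 kb in groups of 5 to 9 (quartiles 1.81 and 3.84). By that measure large groups were somewhat tighter, with overlapping quartiles. Within the large groups the median density was 3.77 for 10 to 14 peaks, 3.74 for 15 to 19 and 4.22 for 20 or more, and the quartiles of these classes overlapped. Across the 105 groups, the number of peaks went with length (Spearman's rho 0.68, Pearson's r 0.77) and not with density (rho 0.03, r -0.02). These correlations describe this list, and density shares both of its terms with the other measures.

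**Figure D1:**
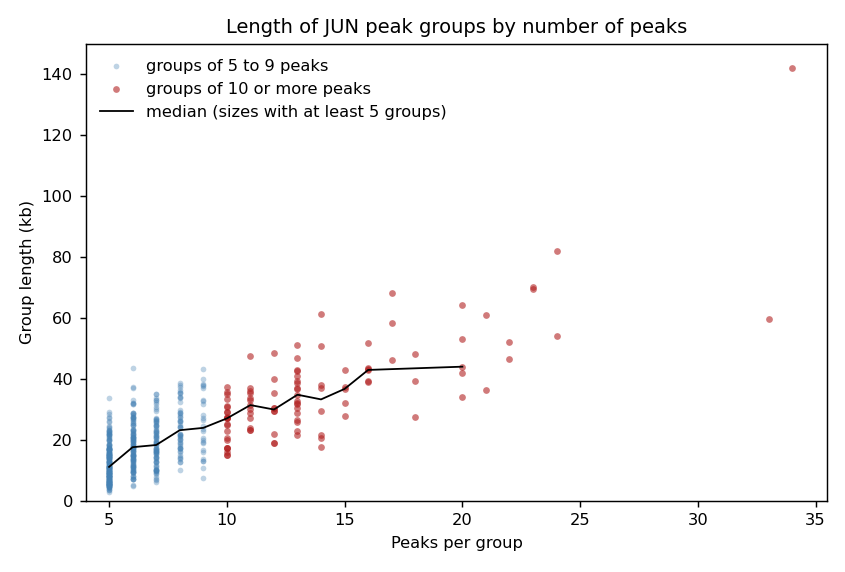
Length of each group in kb (vertical axis) against its number of peaks (horizontal axis), for groups of 5 to 9 peaks (blue) and of 10 or more (red). The black line is the median length at each size with at least 5 groups. Length goes up with the number of peaks, and the group of 34 peaks stands far above the rest at 142 kb while the group of 33 peaks spans 59.7 kb.

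The 5 longest groups ranged from 68.3 to 142 kb. The longest, chr12:38747527-38889574, held 34 peaks at 2.39 peaks per 10 kb, one of the lower densities among large groups. The next was chr18:78826135-78907999, with 24 peaks over 81.9 kb. It was followed by chr19:41701998-41772050 and chr7:120384956-120454437, with 23 peaks each over 70.1 and 69.5 kb. The fifth, chr2:245963527-246031851, had 17 peaks over 68.3 kb and was also among the 5 groups with the widest median gap, 3.40 kb. These stretches were strings of smaller runs, with a lone peak counted as a run. When runs were ended at every gap above 5 kb, the group of 34 peaks on chromosome 12 fell into 13 runs, none with more than 7 peaks, and those on chromosomes 18 and 2 fell into 8 runs each. The chromosome 7 group differed, in that 12 of its 23 peaks formed 1 run.

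The 5 densest groups were compact. The highest density belonged to chr10:108782757-108800390, where 14 peaks lay within 17.6 kb, or 7.94 peaks per 10 kb. Its gaps, in order along the chromosome, were 250, 103, 539, 2655, 2551, 688, 451, 1597, 681, 1036, 243, 2146 and 494 bp. Short and longer gaps were mixed along it, and the widest was the smallest maximum of any large group. The second, chr10:17315268-17335932, also held 14 peaks, at 6.77 peaks per 10 kb. Its gaps were 1181, 746, 681, 257, 725, 764, 718, 460, 233, 808, 8202, 1357 and 333 bp. Of its 14 peaks, 10 followed one another with gaps under 1 kb, the longest such run in any large group, and 1 gap of 8.20 kb set 3 peaks apart from the other 11.

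The next densest, chr1:88175586-88190659 and chr19:63229220-63244332, had 10 peaks each over 15.1 kb and were the shortest of all large groups. The fifth, chr8:45979999-46007643, was also the largest group of its chromosome, with 18 peaks over 27.6 kb at 6.51 peaks per 10 kb. Its gaps were 221, 2651, 1467, 1926, 341, 484, 3264, 193, 303, 420, 559, 466, 1053, 1314, 2342, 3958 and 1283 bp. Within this group, 6 peaks followed one another with gaps of 193 to 559 bp, bounded by gaps of 3264 and 1053 bp. No gap in it was above 5 kb, which held for 8 of the 105 large groups.

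**Figure D2:**
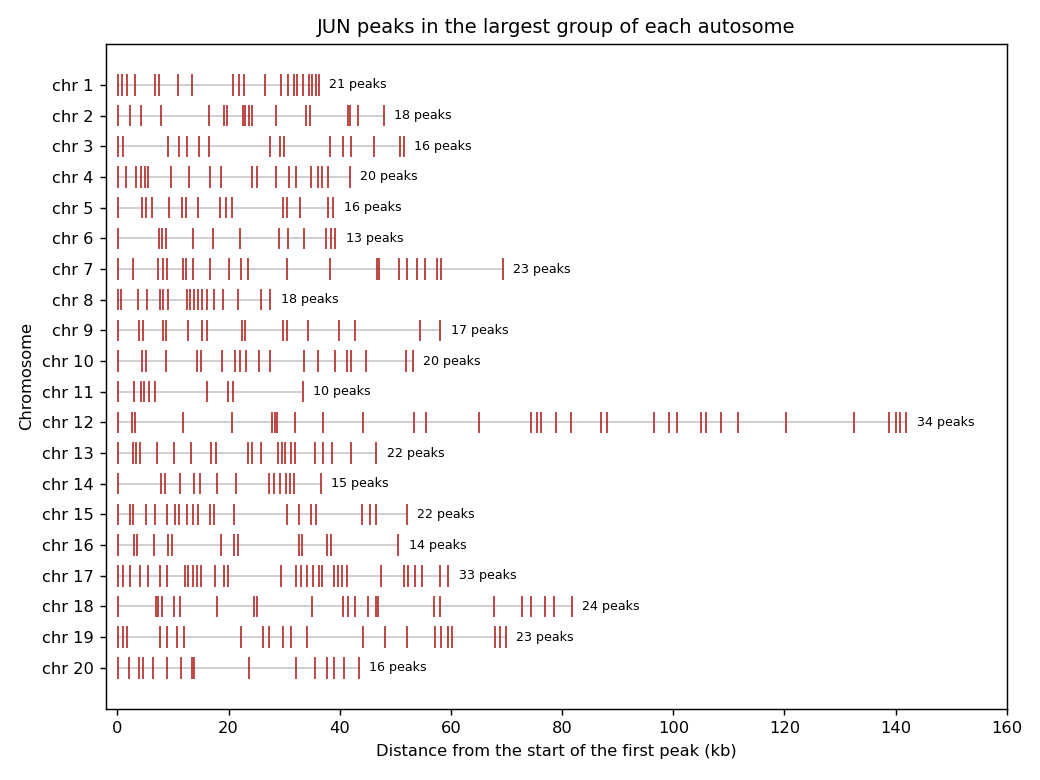
Peaks in the largest group of each of the 20 autosomes. Each row is 1 group (for equal sizes, the one that comes first on the chromosome), each red mark is a 300 bp peak, and the horizontal axis is the distance in kb from the start of the first peak. Groups range from 10 peaks on chromosome 11 to 34 on chromosome 12, and nearly every row shows close runs of peaks separated by wider gaps.

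The median spacing of neighbouring JUN peaks inside large groups was close to that in groups of 2 to 9. It was somewhat narrower than in groups of 5 to 9. The 1370 gaps of the large groups had a median of 1.37 kb (quartiles 0.594 and 3.45 kb). The 6625 gaps of groups of 2 to 9 had a median of 1.39 kb (quartiles 0.512 and 4.69 kb). For the 2494 gaps of groups of 5 to 9 it was 1.54 kb (quartiles 0.570 and 4.36 kb). The distributions parted at the long end. Gaps of 5 kb or more made up 16.5% of gaps in large groups, 21.5% in groups of 5 to 9 and 23.6% in groups of 2 to 9. Gaps of 10 kb or more made up 1.97%, 5.17% and 5.98% in the same order. The joining limit bounds the gaps of all classes alike, and the groups were chosen on these same gaps. What lies behind the smaller share of long gaps in large groups was not tested. Gaps under 1 kb were similarly common, at 41.1% in large groups, 39.7% in groups of 5 to 9 and 42.6% in groups of 2 to 9. Gaps under 0.5 kb made up 20.6%, 21.7% and 24.2%. The smallest gap in a large group was 87 bp.

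**Figure D3:**
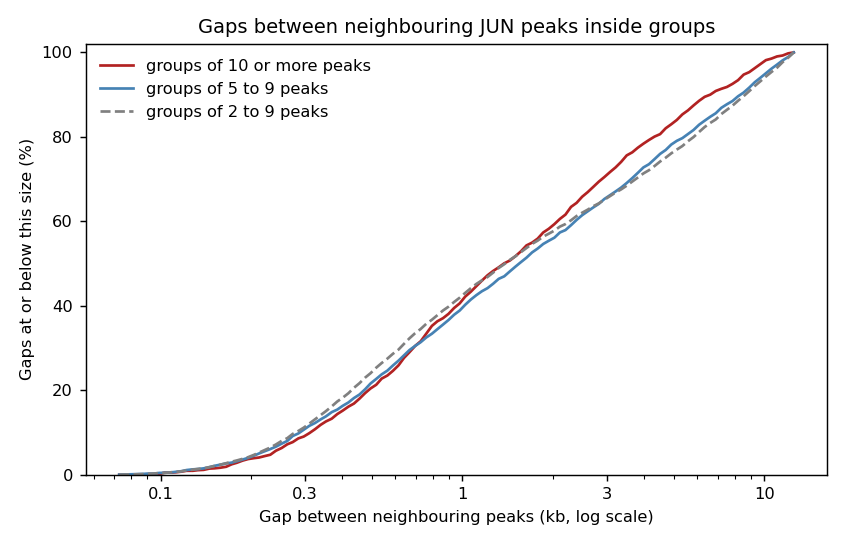
Cumulative share of gaps between neighbouring peaks (vertical axis, %) at or below each size (horizontal axis, kb, log scale), for groups of 10 or more (red), 5 to 9 (blue) and 2 to 9 peaks (grey dashes). The curves nearly coincide up to the medians of 1.37, 1.54 and 1.39 kb, and the red curve lies above the others for gaps of several kb.

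In the large groups, a close pair of peaks was not more often followed by another, and gaps at the ends tended to be wider. Of the 1475 peaks, 913 (61.9%) had a neighbour less than 1 kb away, against 57.0% in groups of 5 to 9 and 51.8% in groups of 2 to 9. An end peak has 1 neighbour inside its group and an inner peak has 2, which raises this share in larger groups. A gap under 1 kb was followed by another gap under 1 kb in 213 of 523 cases (40.7%), and a gap of 1 kb or more was followed by one under 1 kb in 309 of 742 (41.6%). The length of a gap thus told little about the next (Spearman's rho -0.03 over 1265 adjacent gaps, which share their middle peak). The first and last gaps of the large groups had a median of 1.61 kb and the others 1.35 kb. The largest gap was the first or last in 27 of the 105 groups (25.7%), while such gaps were 15.3% of all gaps. In groups of 5 to 9 peaks these shares were 42.2% and 39.1%. The second share pools all gaps, so groups with more gaps weigh more. It is therefore lower than an average over groups would be, and the excess over it is overstated. Of the inner peaks, 33.5% lay in the central 33.3% of the span of their group, so peaks were not concentrated towards the middle. That share counts all inner peaks and cannot show a denser part away from the middle.

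The typical large group was a chain of lone peaks and short runs. With runs ended at gaps above 1 kb, the 105 groups gave 911 runs, counting a lone peak as a run. Of these, 561 were lone peaks and 350 held 2 or more peaks. A median group had 8 runs (range 3 to 24), and its longest run had a median of 3 peaks. Runs of 5 or more such closely spaced peaks occurred in 15 groups. With runs ended at gaps above 5 kb, a median group had 3 runs (range 1 to 13), and the longest run had a median of 8 peaks. Runs of at least 10 peaks with no gap above 5 kb numbered 31 and lay in 29 groups, 2 of which held a pair of them. The longest of these had 19 peaks and belonged to chr12:13530471-13584730, a group of 24 peaks.

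Most large groups contained at least 1 gap far wider than their typical spacing. The largest gap within a group had a median of 8.61 kb (quartiles 6.73 and 9.88, range 2.66 to 12.3), and it was above 10 kb in 24 groups. The same median was 8.57 kb for groups of exactly 9 peaks and 7.12 kb for groups of 5 to 9. A wide gap was thus not particular to large groups, and the largest of more gaps tends to be wider. A group of exactly 10 peaks cannot keep 10 when split. Of the 82 groups of 11 or more, 51 still had a piece of 10 or more peaks when split at the largest gap, whatever its width, and 31 did not. The single large group of chromosome 11, chr11:36176967-36210409, had 10 peaks and the widest inner gap of all, 12.3 kb. It therefore depends on both limits of the rule. By contrast, the group of 33 peaks at chr17:756441-816144 kept a piece of 18 peaks after such a split, and the group of 34 on chromosome 12 kept 29.

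The groups at the extremes of median gap show how different the inner order could be at the same size. At chr2:219692876-219712894, 10 peaks had a median gap of 0.449 kb, the smallest of all. Its gaps were 689, 301, 333, 229, 9605, 449, 3478, 318 and 1617 bp, so 5 peaks were packed into the first part and the other 5 lay beyond a gap of 9.61 kb. At chr1:285173052-285210292, also with 10 peaks, the median gap was 4.65 kb, the largest of all. Its gaps were 1137, 2166, 9758, 4651, 4787, 5690, 731, 359 and 4962 bp. The widest gap was nearly the same in both groups, and they differed in the rest of their gaps. The other groups with the smallest median gaps were chr12:50181503-50198673, chr1:192427681-192470492, chr20:31612880-31640215 and chr6:34009256-34028140, with medians of 0.531, 0.585, 0.613 and 0.644 kb. The other groups with the largest were chr14:85171943-85219554, chr6:137876960-137928019 and chr1:88555671-88584798, with 3.89, 3.82 and 3.59 kb, beside the chromosome 2 group of 17 peaks named above.

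The surroundings of large groups were rich in further JUN peaks. Counted over 100 kb beyond each end, the median was 5 peaks (quartiles 2 and 9, range 0 to 18) around large groups, 3 (quartiles 1 and 7) around groups of 2 to 9, and 2 (quartiles 0 and 4) around single peaks. Groups of 5 to 9 peaks had the same median of 5 (quartiles 2 and 8) as large groups, so this richness was not particular to groups of 10 or more. Within the large groups, the flank count was not related to size (rho 0.06) or to density (rho 0.11). The nearest peak outside lay at a median of 23.1 kb (range 12.6 to 1214), against 31.2 kb for groups of 2 to 9 and 24.3 kb for groups of 5 to 9. By the rule, no distance can be 12500 bp or less.

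The excess of neighbours declined with distance. From the joining limit of 12500 bp out to 25 kb beyond the ends of large groups there were 52.6 peaks per Mb, and from 25 to 50 kb there were 37.0. The density went on to 27.5 from 50 to 100 kb, 20.7 from 100 to 200 kb, 17.4 from 200 to 500 kb and 11.4 from 500 to 1000 kb. The last value was still above the 6.20 peaks per Mb of the autosomes as a whole. Around groups of 5 to 9 peaks the density was 44.6 in the nearest of these ranges and 12.1 in the farthest, and around single peaks it was 18.6 and 9.93. Spread between groups was wide: in the nearest range, large groups had 1.31 ± 1.58 peaks (SD, n = 105 groups), and 47 of them had none there. Surroundings of neighbouring groups overlap, so the same peak can count for more than 1 group.

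**Figure D4:**
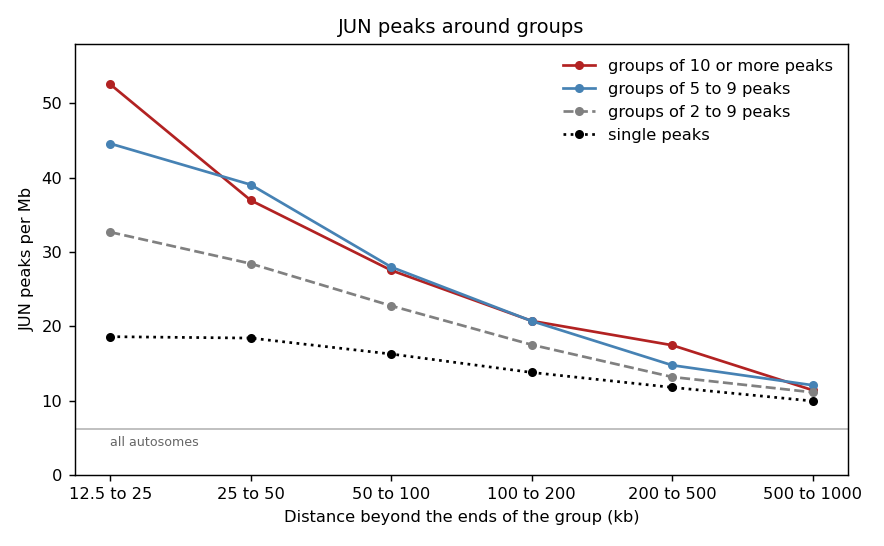
JUN peaks per Mb (vertical axis) in 6 ranges of distance beyond the ends of groups (horizontal axis, kb), for groups of 10 or more (red), 5 to 9 (blue) and 2 to 9 peaks (grey dashes) and for single peaks (black dots). The grey line is the autosomal value of 6.20. The red and blue curves run close together from 25 kb outwards, above those of smaller groups and single peaks, and all 4 end between 9.93 and 12.1.

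Few large groups stood apart from other peaks. No peak lay within 100 kb of either end for 10 groups (9.52%), 43 groups had peaks on 1 side, and 52 had peaks on both sides. The share without flank peaks was 10.5% for groups of 5 to 9, 16.4% for groups of 2 to 9 and 27.9% for single peaks. Large groups were thus much like groups of 5 to 9 in this. The most secluded large group was chr8:80004017-80034334. Its 12 peaks spanned 30.3 kb, and the nearest other peak was 1214 kb away. Its gaps were 237, 8769, 190, 2844, 1884, 632, 866, 257, 519, 4698 and 5822 bp. The next 4 without peaks in their flanks, ordered by distance to the nearest peak, were chr16:73724486-73755205 at 199 kb, chr3:155161627-155180569 at 190 kb, chr1:88555671-88584798 at 184 kb and chr19:63229220-63244332 at 173 kb. The last of these was also among the 5 densest. So was the group of 18 peaks on chromosome 8, whose nearest other peak was 114.9 kb away. High inner density was thus found both in seclusion and, as in the densest group of all with 14 flank peaks, in company.

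At the other end, 23 groups had 10 or more peaks in their flanks. The most, 18, were counted around chr5:175389098-175424605, a group of 11 peaks, with 6 before it and 12 after it. Next were chr1:56845138-56862412 with 17, all after it, then chr2:100397828-100418483 and chr1:56911254-56946555 with 16 each, and chr16:1721844-1772507 with 15. In 3 of these 5, some of the flank peaks belonged to another large group close by.

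Large groups lay near one another in 8 places. Counting neighbours with at most 1000 kb between them, 18 of the 105 groups (17.1%) had another large group nearby. The share of groups of 2 to 9 peaks with a large group within that distance was 18.9%, and it was 14.1% for single peaks. Within 500 kb, the shares were 14.3%, 12.4% and 8.52% in the same order. For groups of 5 to 9 peaks, they were higher, 23.2% within 1000 kb and 17.0% within 500 kb. Large groups were thus not more often near another large group than groups of 5 to 9 were. The nearest pair was chr2:100333742-100370574 and chr2:100397828-100418483, with 13 and 10 peaks and an empty stretch of 27.3 kb between them. Next came chr1:56845138-56862412 and chr1:56911254-56946555, with 10 and 12 peaks, 48.8 kb apart with 5 peaks between. A further group of 16 peaks, chr1:57192193-57235319, lay 246 kb beyond, and the 3 groups together with the peaks among them made 44 peaks within 390 kb. The other row of 3 groups was on chromosome 7, from 11313459 to 12599403, with 10, 18 and 11 peaks and 78 peaks in all over 1286 kb. On chromosome 10, chr10:17102157-17144891 with 13 peaks lay 170 kb before the second densest group, with no peak between. The fifth nearest pair was chr18:78472526-78502808 and the group of 24 peaks on that chromosome, 323 kb apart.

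Each of the 20 autosomes had at least 1 large group, in very unequal numbers. Chromosome 1 had 13 and chromosome 10 had 12, while chromosomes 15 and 17 had 2 each and chromosome 11 had 1. Relative to length up to the last peak, chromosome 12 came first with 13.1 groups per 100 Mb, followed by chromosome 10 with 10.7, against a median of 3.49 over the 20 chromosomes. Chromosomes with more peaks per Mb had more large groups per Mb (Spearman's rho 0.78 over 20 chromosomes). Peaks per Mb went less closely with the percent of a chromosome's peaks in large groups (rho 0.45). All of these measures count the same peaks, so this is a description.

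Chromosome 12 also had the highest share of its peaks in large groups, 20.5% (131 of 638), and chromosome 11 the lowest, 2.55% (10 of 392). The median was 7.72%. Without its group of 34 peaks, chromosome 12 would have 15.2%, still above every other chromosome without its own largest group. The 14.4% of chromosome 18 and the 12.7% of chromosome 10 were next. They differed in make-up: chromosome 18 had 62 peaks in 4 groups and dropped to 8.82% without its group of 24, whereas chromosome 10 had 164 peaks in 12 groups and kept 11.2%. On chromosome 17 a single group supplied 33 of 47 peaks, and the share went from 6.77% to 2.02% without it.

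**Figure D5:**
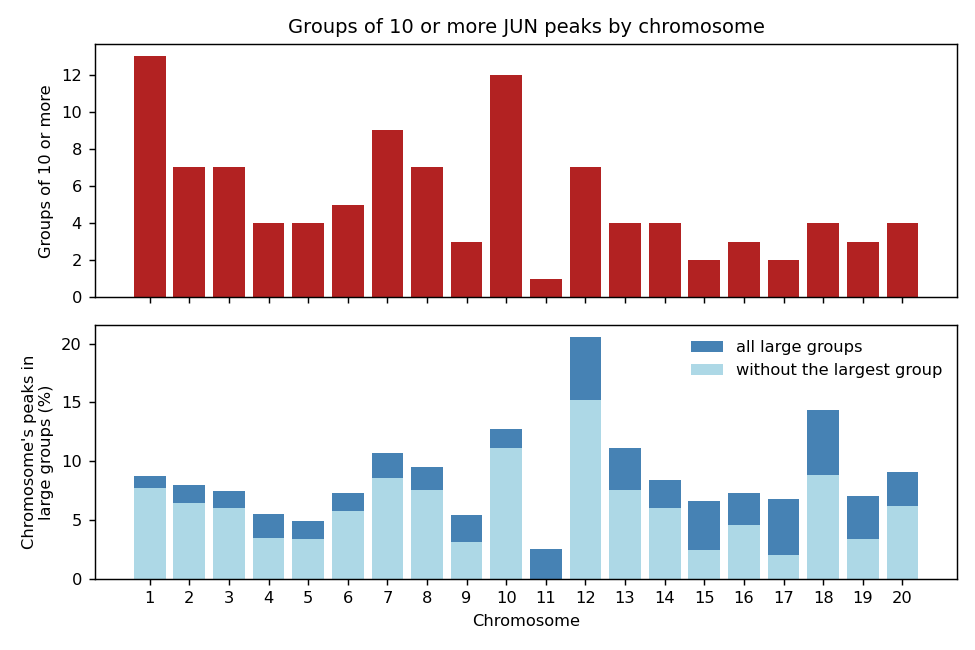
Number of groups of 10 or more peaks on each autosome (upper panel) and the share of each chromosome's peaks that lie in them (lower panel, %), with the share left when the largest group is set aside in light blue. Chromosomes 1 and 10 have the most groups, and chromosome 12 has the highest share at 20.5%.

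The largest group of each chromosome ranged from 10 peaks on chromosome 11 to 34 on chromosome 12. The group of 21 peaks at chr1:274490715-274527099 had 13 of its 20 gaps under 1 kb and included a run of 9 peaks so spaced. The 33 peaks at chr17:756441-816144 had 17 gaps under 1 kb and a median gap of 0.878 kb, and 13 further peaks lay in its flanks. Chromosome 10 had a pair of groups of 20 peaks with different spacing: chr10:82541387-82594636 had 6 gaps under 1 kb and a median gap of 2.15 kb, and chr10:88284045-88328082 had 12 and 0.732 kb. The 20 peaks at chr4:224983585-225025519 had no gap above 5.15 kb over 41.9 kb, the smallest such value among the 15 groups of 20 or more peaks. The 22 peaks at chr13:114500089-114546800 had no gap above 5.50 kb. Those at chr15:28875833-28927987, also 22, included a run of 14 without a gap above 5 kb and, elsewhere, a gap of 9.21 kb. On 8 further chromosomes the largest group had 13 to 18 peaks: chr2:223996419-224044509 with 18, chr9:46343416-46401634 with 17, chr3:17248310-17300033, chr5:159564734-159603742 and chr20:9782317-9825926 with 16 each, chr14:88474551-88511288 with 15, chr16:1721844-1772507 with 14 and chr6:120079923-120119267 with 13. Among these 8, the chromosome 16 group was the least dense, at 2.76 peaks per 10 kb, and the chromosome 5 group the densest, at 4.10. The largest groups of chromosomes 7, 8, 11, 12, 18 and 19 are described above.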

How the data were processed

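The authors deposited 1 list of JUN peaks for the whole series, with chromosome, start and end in base pairs (unit: other, genomic positions). The submitters' processing notes name the build rn5 and the programs MACS2, Bowtie2, deepTools, bedtools and CASAVA (1.8.2). The settings, the peak threshold and how replicates were handled are not given in the sources at hand. A pooled call, a per-replicate call or a looser threshold would each change how many peaks fall into a group, and fixed 300 bp intervals hide the true width of the enriched region.

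Positions are printed 1-based. Peaks were sorted by start, and neighbours were joined where next start minus previous end was at most 12500 bp. Length runs from the first start to the last end, and flanks are the 100 kb beyond each end. The sources used here hold no rn5 sequence or gene annotation, and the gene table at hand is of GRCr8, so the planned steps on genes, fixed gene lists and motifs were not run. Named groups are the 5 at each extreme of length (greatest), density (highest), median gap and flank count, the 5 nearest pairs and the largest per chromosome. Ties in flank count were ordered by distance to the nearest peak. Members and lists were chosen with earlier results of these data known. The joining and flank counts were tested on simulated data. Alternatives were other joining distances, size limits, pre-joining of close peaks, X included and other flanks. The work was done in Python 3.11.15 (pandas 2.3.3, NumPy 2.4.6, matplotlib 3.10.9, SciPy 1.17.1).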

Additional observations from a re-analysis of the deposited data

Results flagged for a closer look

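The 107 peaks on X were outside the comparisons above. They include 1 group of at least 10 peaks, chrX:116314670-116358765, with 18 peaks over 44.1 kb at 4.08 peaks per 10 kb, a median gap of 0.836 kb and 2 peaks in its flanks. It drew notice as a signal in data that the comparisons did not use, and its length and density lie within the range of the autosomal large groups.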

How the results depend on the processing

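The number, length and spacing of large groups depend on how a group is defined. With joining distances of 5 and 25 kb, there were 31 and 208 groups of 10 or more peaks (105 at 12500 bp). They held 2.24% and 17.6% of peaks, with median lengths of 19.8 and 62.4 kb, median densities of 6.33 and 2.25 peaks per 10 kb, and medians of 10 and 2 flank peaks. With a minimum of 8, 12 or 15 peaks, there were 183, 69 and 32 groups with 12.6%, 6.52% and 3.68% of peaks. Peaks closer than 500 bp joined first left 64 groups with 5.72% of peaks. Joined below 1 kb, 31 groups with 2.94% remained, with a median gap of 2.75 kb and 2.45 peaks per 10 kb. Flanks of 50 and 500 kb gave medians of 2 and 19 peaks. Of 50 values under alternatives, the other 26 stayed within 1.5 times the reported value or, for shares, within its interval, including all 6 with X included. Some of these were only just inside that factor. The median gap, 1.37 kb as reported, was 0.929 and 1.98 kb with joining distances of 5 and 25 kb. It was 2.04 kb with peaks closer than 500 bp joined first. How many close peaks are pieces of 1 enriched region was not tested. No paired analysis was possible because all libraries share 1 list of positions, which also prevented leaving out a replicate. Alternatives on peak score, replicates and motif were not run, as the list has no score and no rn5 sequence was at hand. Depth was unknown, so a stretch without peaks is one where none was listed.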
